A study of Mus musculus with 6 samples.

Results

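The genes described here are 10 antioxidant and metallothionein genes of the mouse retina: the metallothioneins Mt1, Mt2 and Mt3, the enzymes Sod1, Sod2, Cat and Gpx4, which remove reactive oxygen species or peroxides, and the inducible protective genes Hmox1, Nqo1 and Gclm. They were chosen by name, and 8 of the 10 were measured, out of 25202 genes that were above 0 FPKM in any library. Mt2 and Sod2 were not analysed here. Bulk retinal RNA of 6 libraries was compared, all from wild type C57BL/6 mice (C57BL/6J in the study's methods) labelled as 5 weeks of age whose eyes had received NMDA, which overstimulates glutamate receptors and so injures retinal neurons. In the NMDA + SCF group (3 libraries), recombinant SCF (stem cell factor, the ligand of the receptor c-kit) was injected into the vitreous 2 days after NMDA. In the NMDA + PBS group (3 libraries), the buffer PBS was given instead. Below, values with PBS and with SCF are those of these groups, in the order of replicates 1, 2 and 3. Retinal cells were collected 1 week after SCF, and uninjured retinas are not among the libraries, so every value below was measured after NMDA. The comparison asks whether SCF changed the RNA of these genes in the injured retina. Neither the labels nor the methods say how many mice stand behind a library, so the p-values measure only the spread between these libraries, which may be technical. In whole tissue, fewer cells of a type and less RNA per cell cannot be told apart.

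Metallothioneins are small proteins rich in cysteine that bind zinc and copper, and their genes are switched on by metals, glucocorticoids and oxidative stress. Mt1 and Mt2 are made in many tissues and cell types, glia among them, whereas Mt3 is found mostly in neural tissue. Superoxide is converted to hydrogen peroxide by the superoxide dismutases, of which Sod1 is the cytosolic and Sod2 the mitochondrial enzyme. Hydrogen peroxide is then broken down by catalase, the product of Cat, and by peroxidases. Gpx4 is the selenium-containing glutathione peroxidase that reduces lipid peroxides within membranes. Hmox1, Nqo1 and Gclm are classical targets of the transcription factor NRF2. Heme oxygenase 1, the product of Hmox1, degrades heme, NQO1 reduces quinones, and the product of Gclm is the modifier subunit of the enzyme that makes the first step of glutathione synthesis.

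The coding sequences of both measured metallothioneins are shown because the cysteine content defines the family and because short reads had to be assigned between related genes. They were taken from the GENCODE M21 transcripts on the GRCm38 build, plus strand, introns left out, with cysteine codons in capitals. Mt1 lies at chr8:94179082-94180327 and Mt3 at chr8:94152607-94154146, a short distance apart on chromosome 8.
Mt1: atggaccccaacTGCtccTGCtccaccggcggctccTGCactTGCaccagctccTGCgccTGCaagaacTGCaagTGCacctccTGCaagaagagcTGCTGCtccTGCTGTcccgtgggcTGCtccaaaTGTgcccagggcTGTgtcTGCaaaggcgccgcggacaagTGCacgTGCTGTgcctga
Mt3: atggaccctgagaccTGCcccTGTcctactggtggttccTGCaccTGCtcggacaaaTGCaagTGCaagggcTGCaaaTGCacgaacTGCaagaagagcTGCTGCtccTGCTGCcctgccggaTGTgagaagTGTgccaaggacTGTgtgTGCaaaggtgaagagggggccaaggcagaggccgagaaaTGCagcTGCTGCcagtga
Each reading frame holds 20 cysteine codons, which is 32.8% of the 61 codons of Mt1 and 29.4% of the 68 codons of Mt3. Aligned over 207 columns, the coding sequences were 66.2% identical, and the longest run of bases they share is 27. Mt1 and the reference coding sequence of Mt2 were closer, with 79.6% identity over 186 columns and a longest shared run of 20 bases.

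Some facts on the libraries bear on all values. The authors deposited FPKM, which scales the fragments of a transcript by its length and by the size of the library. The library size implied by this scaling was 3404332 to 4440575 fragments, or 14.1 to 18.2% of the clean read pairs. The fragments recovered from the values of transcripts with a known length summed to 2826013 to 3742303 per library. Values were listed for 2 different sets of transcripts, the first in all SCF libraries and NMDA + PBS replicate 1, the second in NMDA + PBS replicates 2 and 3, and the first principal component (59.6% of the variance) separated the libraries in the same way. All 19 transcripts of the 8 genes were in both lists, so none of their values rests on a transcript that was listed for some libraries only. Mitochondrially encoded genes took 22.2, 15.01 and 18.7% of the FPKM of Ensembl transcripts with PBS, against 11.2 to 11.6% with SCF.

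On GRCm38, Sod1 (ENSMUSG00000022982) lies at chr16:90220742-90226322 and Gpx4 (ENSMUSG00000075706) at chr10:80047166-80056439, both on the plus strand, and Cat (ENSMUSG00000027187) at chr2:103453849-103485160 on the minus strand. Of the NRF2 target genes, Hmox1 (ENSMUSG00000005413) lies at chr8:75093621-75100589 and Gclm (ENSMUSG00000028124) at chr3:122245557-122270732 on the plus strand, and Nqo1 (ENSMUSG00000003849) at chr8:107388225-107403206 on the minus strand. The identifiers of Mt1 and Mt3 are ENSMUSG00000031765 and ENSMUSG00000031760.

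Per length, the 8 genes spanned a wide range of levels. Sod1 was by far the most abundant, with a mean over the 6 libraries of 783 FPKM, a level below which 99.9% of the tested genes fell. Gpx4 followed at 73.5 FPKM and Cat at 32.5 FPKM. Below them came Hmox1 (21.8 FPKM), Gclm (17.1), Nqo1 (14.2), Mt3 (10.8) and Mt1 (4.06). Sod1 lay above Gpx4, and Gpx4 above Cat, in every library compared with every other. From Cat downwards, each gene's range over libraries overlapped that of the next gene in the order, including Mt3 and Mt1, where the ranges met at 6.56 to 6.66 FPKM.

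Both metallothioneins were the least abundant of the 8 genes per length, with Mt1 above 68.7% and Mt3 above 83.1% of the tested genes, and neither differed between the groups at an adjusted p of 0.05. Mt1 had 2.70, 6.01 and 1.25 FPKM with PBS and 5.65, 2.12 and 6.66 FPKM with SCF. The groups overlapped widely, since NMDA + SCF replicate 2 was below the highest pair of NMDA + PBS libraries. The means were 3.32 ± 2.44 and 4.81 ± 2.38 FPKM (SD, n = 3 each), a log2 fold change of 0.48 (SE 0.52, 95% interval -0.74 to 1.70, adjusted p = 0.746 with limma). Only 6 to 24 fragments per library stand behind these values, and the interval runs from a ratio of 0.600 to one of 3.25. These are ratios of FPKM + 1, which at such low levels lie closer to 1 than ratios of FPKM. With 0.1 instead of 1 added to the FPKM, the log2 fold change was 0.63.

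Nearly all of the Mt1 fragments were assigned to a form that carries introns. The spliced form with 3 exons (549 bases) had 1, 2 and 0 fragments with PBS and 0, 0 and 1 with SCF. Another annotated form (1085 bases), whose length equals the genomic stretch it covers and which thus has no intron removed, had 8, 22 and 6 fragments against 21, 8 and 23. The difference between the forms is seen at the first coding junction, printed here with 15 bases on each side of the end of the exon at base 94179338, exon bases in capitals and intron bases in lower case. The intron that follows is 484 bases long.
Mt1 spliced: GCTCCTGCTCCACCGGCGGCTCCTGCACTT
Mt1 unspliced: GCTCCTGCTCCACCGgtaagactcccgatc
The unspliced form held 80.2 to 100% of the Mt1 FPKM in each library. How a fragment that fits both forms was assigned is not given in the sources used here, so the split between forms is that of the authors' counting, and the sum over forms is the safer measure of the gene.

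Mt3, the neural metallothionein, was higher on average with SCF. It was measured at 9.58, 6.90 and 6.56 FPKM with PBS and at 9.51, 17.1 and 15.2 FPKM with SCF. NMDA + SCF replicates 2 and 3 stood above all others, whereas replicate 1 lay just below NMDA + PBS replicate 1, so the groups overlapped. The means of 7.68 ± 1.66 and 13.9 ± 3.94 FPKM (SD, n = 3 each) gave a log2 fold change of 0.76 (SE 0.28, 95% interval 0.11 to 1.41), a 1.69-fold higher level on the log2(FPKM + 1) scale. With limma the unadjusted p was 0.0272 and the adjusted p 0.536. The exact permutation test of the means gave p = 0.2 (two-sided), where 3 against 3 libraries cannot go below 0.1. Of the 3 coding forms of Mt3, the one of 440 bases did not overlap between the groups, with 5.34, 2.86 and 2.05 FPKM against 5.97, 5.88 and 8.54 FPKM, which is 4 to 8 against 9 to 13 fragments. Over the 19 forms of the 8 genes there were 2 without overlap, this one and a Gpx4 form, and among all transcripts in both lists with a mean of at least 1 FPKM the share was 18.5%. The form of 477 bases had 3.69, 2.64 and 2.83 FPKM against 2.45, 9.04 and 6.67 FPKM, and the form of 536 bases stayed at 4 fragments or fewer in every library.

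**Figure D1:**
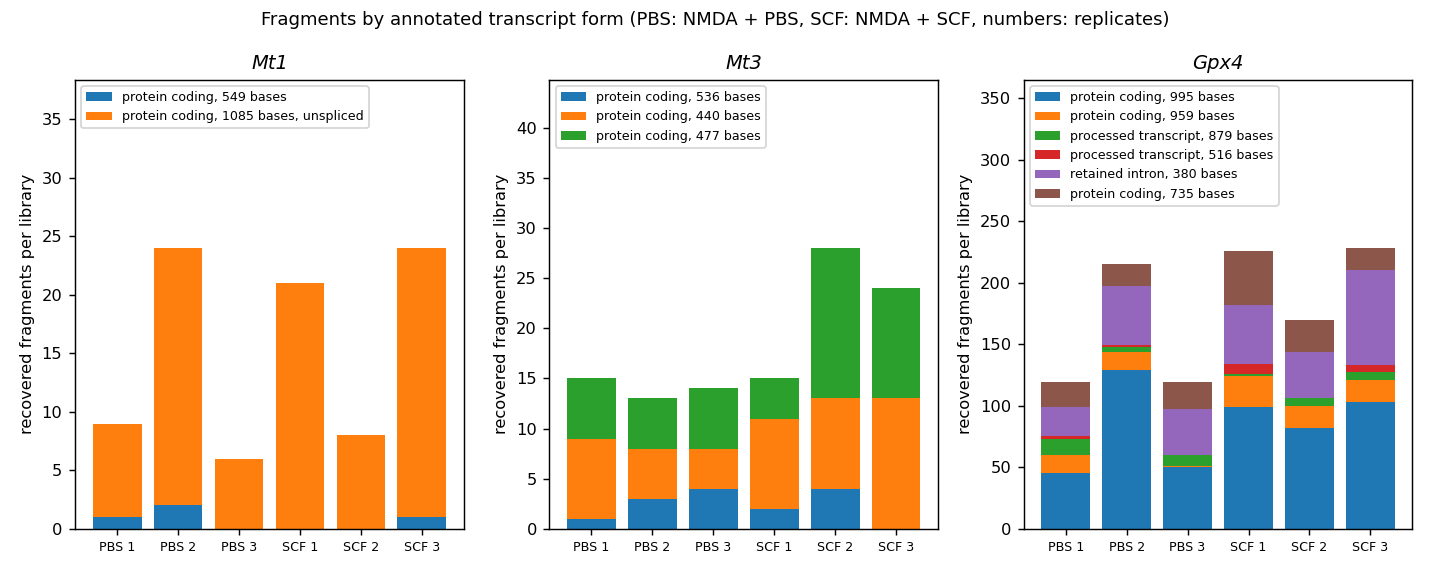
Recovered fragments of Mt1, Mt3 and Gpx4 in each library (horizontal axis, PBS for NMDA + PBS and SCF for NMDA + SCF with the replicate number), stacked by annotated transcript form. The unspliced Mt1 form holds 6 to 23 fragments per library while the spliced one holds 0 to 2, and the retained-intron form of Gpx4 takes 24 to 77 fragments.

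Sod1, the cytosolic superoxide dismutase, was nearly constant among the NMDA + SCF libraries and varied among the NMDA + PBS libraries. Its level was 975, 604 and 249 FPKM with PBS (2128, 1541 and 709 fragments) and 940, 950 and 976 FPKM with SCF. NMDA + PBS replicate 1 was at the level of the SCF libraries, and replicates 2 and 3 were below all others. Within NMDA + PBS the highest value was 3.91 times the lowest, and within NMDA + SCF it was 1.04 times. The means of 610 ± 363 and 955 ± 18.3 FPKM (SD, n = 3 each) gave a log2 fold change of 0.85 (SE 0.47, 95% interval -0.24 to 1.95, adjusted p = 0.568 with limma). This value rested on the replicates: against NMDA + PBS replicate 1 alone, which shares the transcript list of the SCF libraries, the difference was -0.03, and against replicates 2 and 3 it was 1.30. Counting error is small for Sod1, and the spread between the NMDA + PBS libraries, not depth, limits this comparison.

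Cat, which encodes catalase, was at a similar level in both groups within the spread. Its values were 33.9, 32.8 and 28.9 FPKM with PBS and 30.4, 32.1 and 36.7 FPKM with SCF. The libraries of both groups interleaved, and the means of 31.9 ± 2.67 and 33.1 ± 3.29 FPKM (SD, n = 3 each) differed by less than either spread. The log2 fold change was 0.05 (SE 0.17, 95% interval -0.34 to 0.44, adjusted p = 0.928 with limma), and its sign turned under upper quartile, median-of-ratios and quantile scaling. The interval leaves room for a ratio between 0.788 and 1.36.

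Gpx4, the lipid peroxide reductase, had a higher mean with SCF. The values were 49.9, 76.1 and 42.5 FPKM with PBS and 96.2, 69.9 and 106 FPKM with SCF. NMDA + SCF replicates 1 and 3 stood above all PBS libraries, while NMDA + SCF replicate 2 was below NMDA + PBS replicate 2. The means were 56.2 ± 17.6 and 90.8 ± 18.8 FPKM (SD, n = 3 each), with a log2 fold change of 0.71 (SE 0.27, 95% interval 0.08 to 1.33) and a fold of 1.63. The unadjusted limma p was 0.0327, the adjusted p 0.536 and the exact permutation p 0.2.

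The product of Gpx4 contains selenocysteine, which is read from a UGA codon that would otherwise end translation. In the form ENSMUST00000097227 (GRCm38, within chr10:80054037-80056439, plus strand) the reading frame holds this TGA as codon 129 of 253, shown in capitals within codons 119 to 139.
Gpx4: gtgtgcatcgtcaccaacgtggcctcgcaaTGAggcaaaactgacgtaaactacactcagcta
This coding form had 13.3, 32.6 and 11.3 FPKM with PBS and 29.0, 23.7 and 29.9 FPKM with SCF. In every library but NMDA + PBS replicate 2, however, the form with the highest FPKM was a retained-intron form of 380 bases. It has no annotated reading frame and was at 18.6, 31.8 and 21.9 FPKM with PBS and 36.9, 28.7 and 58.6 FPKM with SCF. It held 37.2 to 55.1% of the Gpx4 FPKM of a library, and coding forms together held 50.5% over all libraries. Because FPKM divides by length, a short form weighs more than its fragments, which were 20.2 to 33.8% of those of the gene. The Gpx4 form without overlap was 1 of its 6 forms, a coding form of 959 bases with 4.59, 3.93 and 0.235 FPKM with PBS and 7.61, 5.39 and 5.43 FPKM with SCF, from 1 to 15 against 18 to 25 fragments.

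Hmox1 had the widest range among the SCF libraries of the NRF2 target genes. It was measured at 10.5, 22.3 and 13.1 FPKM with PBS and at 19.2, 26.4 and 39.3 FPKM with SCF. NMDA + SCF replicates 2 and 3 exceeded all PBS libraries, and NMDA + SCF replicate 1 lay below NMDA + PBS replicate 2. The mean was 15.3 ± 6.20 FPKM with PBS and 28.3 ± 10.2 FPKM with SCF (SD, n = 3 each). The log2 fold change of 0.85 (SE 0.35, 95% interval 0.04 to 1.67) equals a fold of 1.81, with an unadjusted limma p of 0.0425, an adjusted p of 0.536 and an exact permutation p of 0.2. In contrast to Sod1, the difference was larger against NMDA + PBS replicate 1 alone (1.29) than against replicates 2 and 3 (0.64). The full-length coding form carried 96.4 to 100% of the Hmox1 FPKM.

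Nqo1, the quinone reductase, followed the pattern of Sod1. Its values were 18.5, 12.5 and 7.40 FPKM with PBS and 14.5, 14.8 and 17.3 FPKM with SCF. The highest and the lowest library were both NMDA + PBS libraries, so the SCF values lay inside the PBS range. The means of 12.8 ± 5.58 and 15.5 ± 1.56 FPKM (SD, n = 3 each) gave a log2 fold change of 0.34 (SE 0.32, 95% interval -0.40 to 1.08, adjusted p = 0.707 with limma). Against NMDA + PBS replicate 1 alone it was -0.25, and against replicates 2 and 3 it was 0.63.

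Gclm, the modifier subunit of glutamate-cysteine ligase, was at the same level in both groups within the spread. It had 13.1, 18.7 and 19.0 FPKM with PBS and 15.8, 18.6 and 17.1 FPKM with SCF. Here NMDA + PBS replicate 1 was the lowest library and replicates 2 and 3 the highest pair, the reverse of their place in Sod1 and Nqo1. The means were 16.9 ± 3.34 and 17.2 ± 1.41 FPKM (SD, n = 3 each), and the log2 fold change was 0.03 (SE 0.21, 95% interval -0.46 to 0.52, adjusted p = 0.964 with limma), with a sign that turned under upper quartile, median-of-ratios and quantile scaling. Gclc encodes the catalytic partner of this enzyme. Among transcripts in both lists it had a single form without a reading frame, with 1 fragment in each PBS library and 0 in each SCF library. With every listed transcript summed, Gclc had 0.970, 0.457 and 0.278 FPKM with PBS and 0 with SCF. At these levels the partner could not be compared. An antisense gene overlaps Gclm, and whether the counting used strand is not given in the sources used here.

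**Figure D2:**
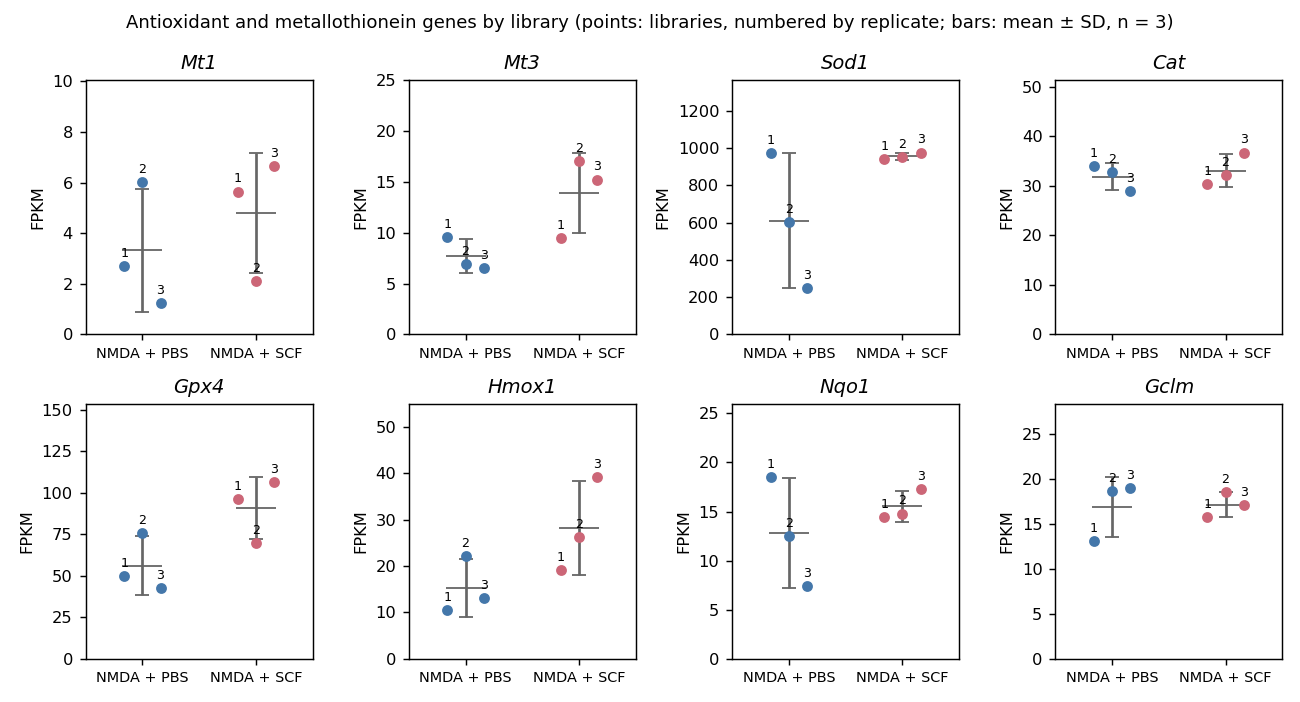
FPKM (vertical axes, linear from 0) of the 8 genes in each of the 6 libraries, grouped as NMDA + PBS (blue) and NMDA + SCF (red), with replicate numbers at the points and bars for the mean ± SD (n = 3). The groups overlap in each panel, and Sod1 shows SCF libraries between 940 and 976 FPKM beside PBS libraries from 249 to 975 FPKM.

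No call was made among the 8 genes. With limma none reached an adjusted p of 0.05, nor the stricter pair of a 2-fold change and an adjusted p of 0.001, and the share of all tested genes that did was 0.0% for both. At an unadjusted p of 0.05, 3 of the 8 (Mt3, Gpx4 and Hmox1) were higher and 0 lower, where 9.22% of all genes passed (4.33% higher and 4.9% lower). Among all genes this split of 1090 higher and 1234 lower became 643 and 1555 with upper quartile scaling, 753 and 1456 with median-of-ratios scaling and 591 and 1631 without mitochondrial genes. All 8 fitted fold changes were above 0, with Cat and Gclm below 0 under the other scalings named above and Sod1, Nqo1 and Cat below 0 against NMDA + PBS replicate 1 alone, whereas 55.8% of genes with a mean of at least 1 FPKM were above 0. The median log2 fold change was 0.59, beside 0.07 for genes with a mean of at least 1 FPKM and -0.01 for all genes. Since 7 of the 8 genes had a mean of at least 10 FPKM, the medians of abundant genes are closer to them in level: 0.15 for genes between 10 and 30 FPKM, 0.27 between 30 and 100 FPKM and 0.40 from 300 FPKM upwards. In none of the 8 genes were the groups free of overlap, a property of 14.1% of all genes (7.63% higher and 6.45% lower with SCF) and of 18.3% of those with a mean of at least 1 FPKM. The count of 3 genes at an unadjusted p of 0.05 fell to 0 when NMDA + PBS replicate 3, NMDA + SCF replicate 3 or the mitochondrial genes were left out, and to 1 without NMDA + SCF replicate 2.

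**Figure D3:**
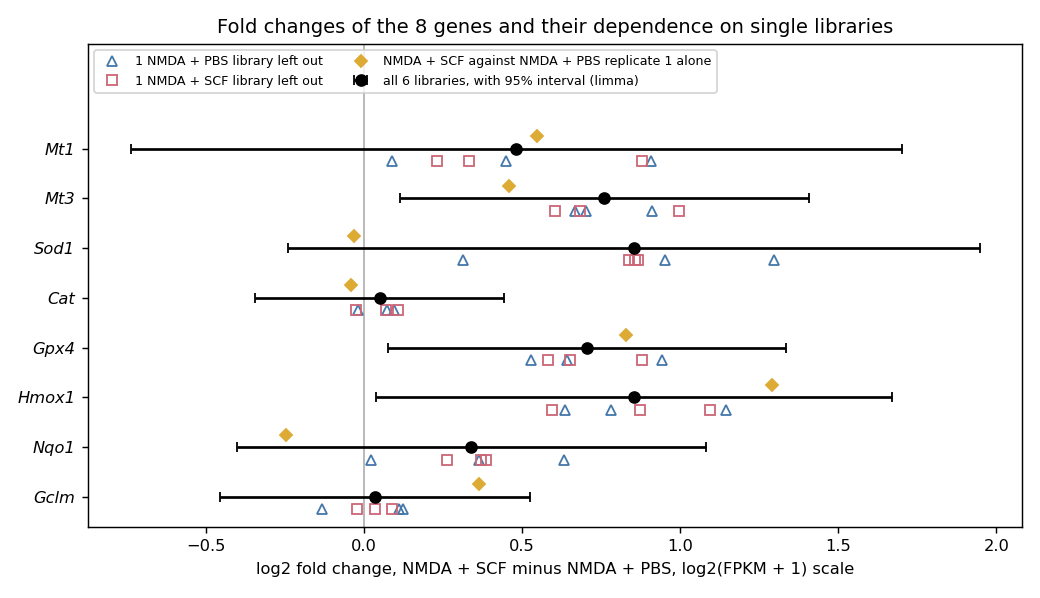
Log2 fold changes of the 8 genes (horizontal axis, NMDA + SCF minus NMDA + PBS on the log2(FPKM + 1) scale) with 95% limma intervals (black), the values with 1 library left out (open triangles and squares) and those against NMDA + PBS replicate 1 alone (diamonds). Sod1 moves from 0.85 to -0.03 and Nqo1 from 0.34 to -0.25 against that single library, while Mt3, Gpx4 and Hmox1 stay above 0 throughout.

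The extremes of the 8 genes fell in few libraries. NMDA + SCF replicate 3 was the highest library in 5 of the 8 genes (Mt1, Sod1, Cat, Gpx4 and Hmox1). NMDA + PBS replicate 3 was the lowest in 6 (Mt1, Mt3, Sod1, Cat, Gpx4 and Nqo1), and NMDA + PBS replicate 1 in the other 2 (Hmox1 and Gclm). Of all genes with a mean of at least 10 FPKM, 22.6% were highest in NMDA + SCF replicate 3, 43.4% lowest in NMDA + PBS replicate 3 and 18.7% lowest in NMDA + PBS replicate 1. NMDA + PBS replicate 3 was lowest in 35.5% of genes between 10 and 30 FPKM and in 63.0% of those from 300 FPKM upwards. NMDA + PBS replicates 2 and 3 were both below the other 4 libraries in Mt3, Sod1 and Nqo1 and both above them in Gclm, whereas the remaining 4 genes overlapped. Among genes with a mean of at least 1 FPKM, 35.1% separated in one direction or the other, so 4 of 8 was not far from the background.

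The low Sod1 values in NMDA + PBS replicates 2 and 3 had a counterpart in other abundant genes, at a smaller size. For the 135 genes with a mean of at least 300 FPKM, the median difference from NMDA + PBS replicate 1 on the log2(FPKM + 1) scale was -0.46 in replicate 2 and -0.75 in replicate 3. For Sod1 these differences were -0.69 and -1.96. Nqo1 showed -0.54 and -1.22, although genes of its class, with a mean of 10 to 30 FPKM, had medians of 0.11 and -0.00056. The same 135 genes had a median log2 fold change of 0.40 between the groups, and that of the 372 genes with a mean between 100 and 300 FPKM was 0.38. The part of this shift in the fold change of Sod1 was not tested.

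**Figure D4:**
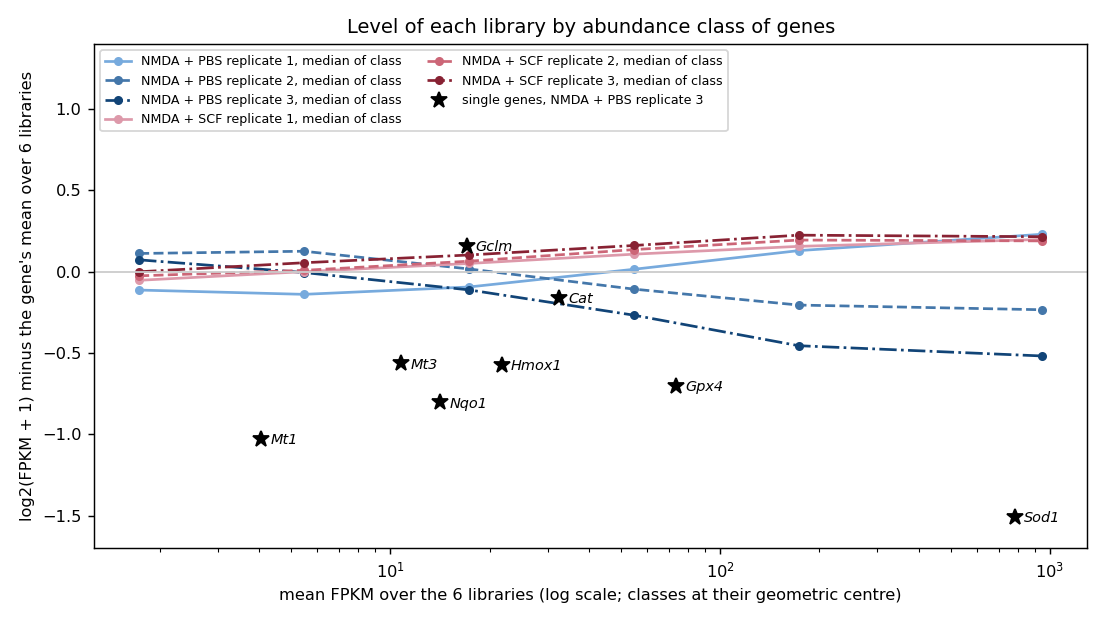
Median deviation of each library from the mean of the gene over the 6 libraries (vertical axis, log2(FPKM + 1)) by class of mean FPKM (horizontal axis, log scale), with stars for the 8 genes in NMDA + PBS replicate 3. In the class of at least 300 FPKM, NMDA + PBS replicates 2 and 3 lie at -0.23 and -0.52, and Sod1 in replicate 3 lies at -1.51.

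The 8 genes did not move as 1 block over the 6 libraries. Pearson's r, given as a description over 6 points that share their transcript lists and depth, was highest for Nqo1 and Sod1 (0.96), Gpx4 and Mt1 (0.87), and Hmox1 and Gpx4 (0.82). Gclm had an r of -0.65 with Nqo1, -0.53 with Sod1, 0.07 with Gpx4 and 0.47 with Hmox1. Both metallothioneins, Mt1 and Mt3, were nearly unrelated (0.14).

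Among the other genes with a mean of at least 10 FPKM (4508 for Mt1 and 4507 for each of the rest), those most like each gene over the 6 libraries were looked up without a test. Sod1 was closest to Ndufa2 (r = 0.9996) and Cox8a (0.999), which encode small subunits of mitochondrial respiratory complexes, and 781 genes (17.3%) had an r above 0.9 with it. Cox8a spanned 2773, 1407 and 345 FPKM with PBS and 2506 to 2731 FPKM with SCF, a decline wider than that of Sod1. Nqo1 was closest to Sem1 (0.998) and Eid1 (0.996), with 510 genes above 0.9. Mt3 was most like Pdhx (0.997) and Elavl1 (0.991). Gpx4 was most like Crocc (0.999) and Rpp21 (0.997). For Mt1 the closest were Bag6 (0.980) and Rpl18 (0.959), for Cat Amacr (0.981) and 6230400D17Rik (0.980), and for Gclm Necab1 (0.982) and Fam78b (0.980). Hmox1 was closest to Snx24 (0.995) and to Crygb (0.991), a crystallin of the lens, which had 2.32, 151 and 15.6 FPKM with PBS and 76.4, 193 and 1585 FPKM with SCF. Each of the lens markers read below was lower in NMDA + SCF replicate 2 than in replicate 1 (Lim2 only slightly), the reverse of Crygb and Hmox1. Cryba1, for example, had 1154, 70.8 and 2255 FPKM with SCF.

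Markers of other cells were read beside these genes. The library highest in 5 of the 8 genes, NMDA + SCF replicate 3, also held the largest sum of the 10 lens markers with a row. These sums were 23.4, 179 and 305 FPKM with PBS and 5139, 460 and 9578 FPKM with SCF. With SCF, Mt1 and Gpx4 had the same order as these sums. Sod1, Cat and Hmox1 did not, being higher in replicate 2 than in replicate 1. With PBS the largest lens sum was in replicate 3, the lowest of the 6 libraries in Mt1, Sod1, Cat and Gpx4. The hemoglobin and other red cell markers (4 of 6 with a row) summed to 49.8, 38.6 and 26.4 FPKM with PBS and 47.5, 111 and 236 FPKM with SCF. Hmox1, the heme-degrading enzyme, had the same order over the SCF libraries, but with PBS the library with the largest red cell sum had the lowest Hmox1 value. Microglia and macrophage markers (5 of 9 with a row, without Aif1, Csf1r, Ctss and Tyrobp) summed to 134, 278 and 34.1 FPKM with PBS and 208, 288 and 291 FPKM with SCF. Nearly all of this was C1qa and C1qb, since Cd68, C1qc and Cx3cr1 stayed at 0.62 FPKM or below. For the pigment epithelium, with all 8 markers present, the sums were 845, 444 and 215 FPKM against 760, 982 and 959 FPKM. Most of each sum was Ttr alone, at 779, 356 and 176 FPKM against 694, 919 and 827 FPKM. With PBS, Ttr, Dct, Tyr and Best1 were lowest in replicate 3. Rpe65, Rgr and Lrat were lowest in replicate 2, and Rdh5 in replicate 1. The part of these cells in the values of Hmox1 or any other gene was not tested.

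Markers of the retinal cell types themselves were measured in all libraries, and their sums overlapped between the groups. Müller glia markers (8 of 9 with a row) summed to 3144 to 4179 FPKM with PBS and 3280 to 3467 FPKM with SCF. Within this sum, Dkk3 had 0.262, 980 and 1007 FPKM with PBS and 0.0856 to 0.261 FPKM with SCF. It thus added a large part in NMDA + PBS replicates 2 and 3 only. Glul, the largest part, had 3899, 1960 and 2202 FPKM against 3148, 3178 and 2993 FPKM, so the same replicates were its lowest libraries. Rod markers (8 of 8) summed to 2761 to 3351 and 3177 to 3779 FPKM. Ganglion cell markers (7 of 8, without Pou4f1) summed to 251 to 461 FPKM with PBS and 259 to 317 FPKM with SCF. Of these, Stmn2 had 0.283, 28.6 and 28.4 FPKM with PBS and 0.0842 to 0.424 FPKM with SCF. Slc17a6 had 0.142, 5.90 and 8.74 FPKM against 0 to 0.353 FPKM. Cone markers (4 of 5) summed to 56.8 to 96.7 and 67.5 to 73.0 FPKM, and vascular markers (6 of 6) to 132 to 171 and 161 to 208 FPKM. Cornea markers (4 of 6) were at 15.04 to 46.3 FPKM with PBS and at 3.73 to 13.0 FPKM with SCF, without overlap. Reactive glia markers (6 of 8) summed to 97.2, 285 and 46.1 FPKM with PBS and 118, 223 and 196 FPKM with SCF. Mt1 had the same order as these sums with PBS, whereas with SCF its lowest library was the one with the largest sum.

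A wider list of 56 genes of the same systems was examined, of which 53 were measured. None passed an adjusted p of 0.05 with limma, where the smallest was 0.536. At an unadjusted p of 0.05, 6 were higher and 5 lower with SCF, or 11 of 53 beside 9.22% of all genes. The 5 lower ones include Gclc, at 1 fragment or none per library. The median log2 fold change was 0.11, with 30 values above 0 and 23 below.

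Of the 11 genes of the wider list at an unadjusted p of 0.05, 4 were far apart between the transcript lists. Gsr, which regenerates reduced glutathione, had 28.9, 1.24 and 0.0843 FPKM with PBS and 31.1, 32.5 and 36.6 FPKM with SCF. Mafg, a small Maf partner of NRF2, had 70.9, 0.0511 and 0 FPKM with PBS and 119, 89.8 and 107 FPKM with SCF. Prdx3, the mitochondrial peroxiredoxin, went the other way with 0.199, 142 and 105 FPKM against 0.395, 0.194 and 0 FPKM. Mgst3, a microsomal glutathione transferase, had 0.803, 56.8 and 31.4 FPKM against 0.262 to 0.266 FPKM. In all 4 genes NMDA + PBS replicate 1 was on the side of the SCF libraries. Such a gap of at least 10-fold between NMDA + PBS replicates 2 and 3 and the other 4 libraries was found in 397 of the 14013 genes with a mean of at least 1 FPKM (2.83%). For Mafg it was a matter of transcripts: with every listed transcript summed, its values were 76.96, 93.9 and 59.8 FPKM with PBS and 133, 93.7 and 117 FPKM with SCF. For Gsr, Prdx3 and Mgst3 the sum over all listed transcripts was the same as over shared ones. None of the 8 genes described above showed such a gap.

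By role, the other differences were smaller. Among glutathione genes, 9 of 13 fold changes were above 0 (median 0.36), 3 passed an unadjusted p of 0.05 upwards (Gsr, Gpx3 and Gpx8) and 2 downwards (Mgst3 and Gclc, the latter from 1 against 0 fragments per library). Gpx8, a peroxidase of the endoplasmic reticulum, had 10.1, 11.1 and 5.53 FPKM with PBS and 14.3, 12.4 and 17.3 FPKM with SCF, a log2 fold change of 0.70 (SE 0.29). Gpx3, the secreted glutathione peroxidase, had 71.5, 476 and 123 FPKM against 396, 422 and 641 FPKM, with NMDA + PBS replicate 2 inside the SCF range and a log2 fold change of 1.55 (SE 0.64). Unlike Sod1, Gpx3 was lowest in NMDA + PBS replicate 1.

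Thioredoxin and peroxiredoxin genes had 6 of 11 fold changes above 0, with Prdx3 as the only gene at an unadjusted p of 0.05. Heme and iron genes had 3 of 8 above 0, and among them Tfrc, the transferrin receptor that takes up iron, had 14.2, 10.1 and 10.4 FPKM with PBS against 5.79, 5.12 and 6.25 FPKM with SCF, without overlap. This was the smallest p of the list, with a log2 fold change of -0.89 (SE 0.22, 95% interval -1.42 to -0.37, adjusted p = 0.536 with limma). It rested on 18 to 37 fragments with PBS and 7 to 14 with SCF. The form with the highest mean FPKM had only 166 bases, so it weighs more in the FPKM than in these fragments. With every listed transcript summed, Tfrc had 14.2, 14.04 and 23.7 FPKM with PBS and the same values with SCF. Genes of the NADPH supply had 2 of 5 fold changes above 0. G6pdx, which supplies NADPH through the pentose phosphate pathway, did not overlap between the groups, at 88.3, 68.9 and 54.6 FPKM with PBS and 104, 91.3 and 99.3 FPKM with SCF (log2 fold change 0.49, SE 0.21). NMDA + PBS replicates 2 and 3 were its lowest libraries, and the difference was 0.15 against NMDA + PBS replicate 1 alone and 0.67 against replicates 2 and 3. Me1, another source of NADPH, had 1.88, 2.06 and 3.002 FPKM against 1.15, 0.699 and 0.703 FPKM, with NMDA + PBS replicates 2 and 3 as its highest libraries.

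Of the regulators, 4 of 7 fold changes were above 0, and of the metal transporters 3 of 5, with Mafg and Slc30a10 as the genes at an unadjusted p of 0.05. Slc30a10, a manganese transporter, had 2.47, 3.36 and 2.62 FPKM with PBS and 4.30, 5.61 and 4.71 FPKM with SCF, without overlap and with a log2 fold change of 0.62 (SE 0.26). Mtf1, the factor that switches on metallothionein genes in response to zinc, had 5.94, 7.72 and 1.72 FPKM against 7.79, 14.5 and 9.15 FPKM, of which coding forms made up 24.9%, and its unadjusted limma p of 0.0631 and adjusted p of 0.540 missed the thresholds. Nfe2l2, which encodes NRF2, had 3.96, 2.56 and 4.67 FPKM with PBS and 1.82, 3.01 and 3.30 FPKM with SCF. Coding forms made up 21.4% of the Nfe2l2 FPKM, and 9 to 40 fragments per library stood behind it. Keap1, the inhibitor of NRF2, had 5.85, 5.57 and 6.29 FPKM against 5.99, 5.497 and 3.92 FPKM. Both overlapped between the groups. With every listed transcript summed, Keap1 had 5.85, 15.9 and 14.9 FPKM with PBS and 5.99, 5.68 and 4.04 FPKM with SCF. The log2 fold changes of the 3 NRF2 target genes, Hmox1, Nqo1 and Gclm, were 0.85, 0.34 and 0.03 with intervals that overlap, and their difference was not tested.

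**Figure D5:**
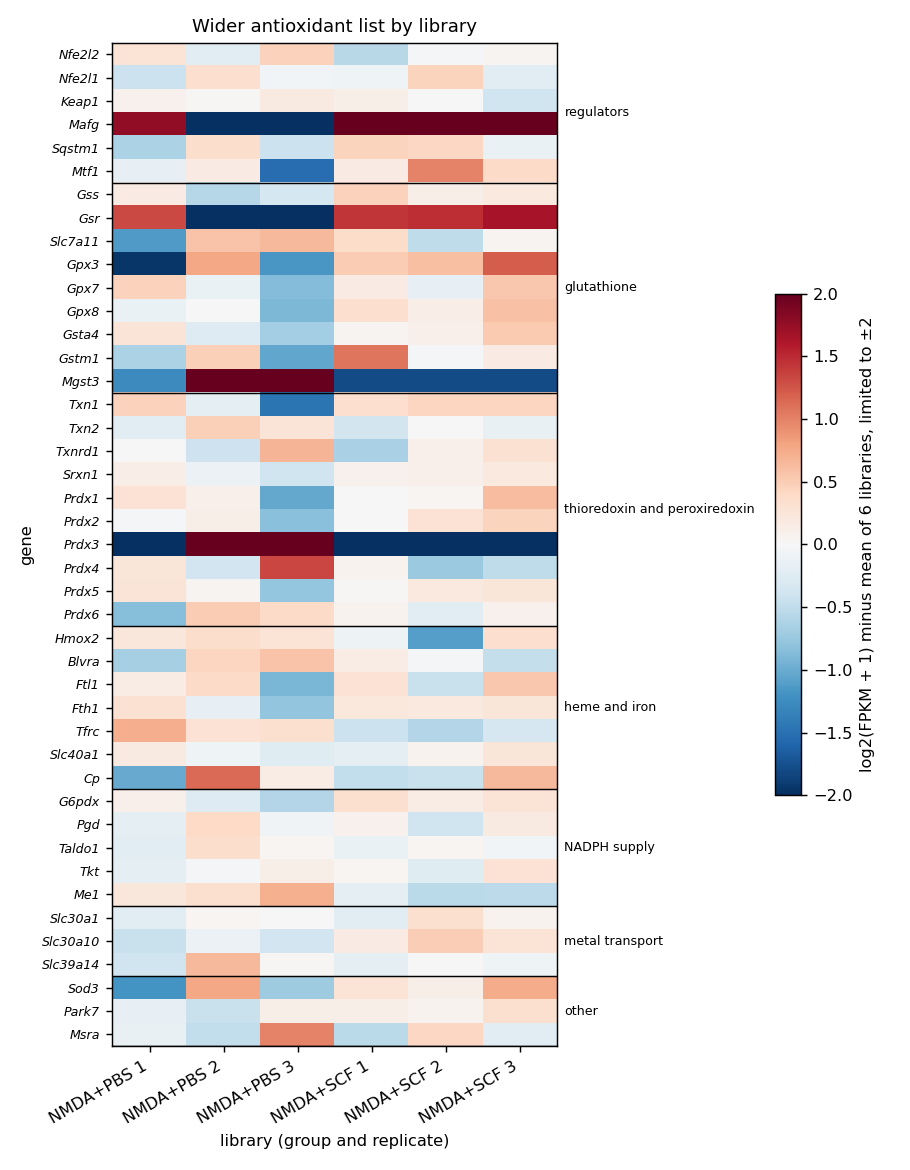
Deviation of each library (columns) from the mean of the gene over the 6 libraries on the log2(FPKM + 1) scale, limited to 2 units either way, for the 43 genes of the wider list with a mean of at least 1 FPKM, ordered by role. Mafg and Gsr are low and Prdx3 and Mgst3 high in NMDA + PBS replicates 2 and 3, and most other rows show no split between the groups.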

How the data were processed

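The data were 3 retinal mRNA libraries with NMDA + PBS and 3 with NMDA + SCF. The values the authors deposited were FPKM of single transcripts, 1 table a library. A deposited table gave the count of clean reads (44925938 to 48783182 per library) and the percent of bases at quality 30 or above (92.9 to 94.3%). The aligner and counter are not given in the sources used here. The submitters' processing notes name mm9, but 98.2% of the Ensembl transcripts lay at GENCODE M21 positions on GRCm38, which was used for coordinates. The level of a gene was the sum of FPKM of its Ensembl transcripts, of which 46933 were in all 6 tables, and was compared as log2(FPKM + 1) with limma 3.58.1 in R 4.3.3 (variance trend, condition only, Benjamini-Hochberg over 25202 genes). No low value was filtered out. FPKM times transcript length gave whole fragments, within 0.05, for 98.4 to 98.5% of values above 0. Two-sided exact permutation tests were run per gene. The script was tested on simulated data.

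The 10 genes, the wider list and the marker lists were chosen with earlier results of these data known. Of the wider list, the text names the 10 genes with the smallest p and those without overlap at a mean of at least 10 FPKM. Mtf1, Nfe2l2 and Keap1 fall outside this rule and were named for their role after their values were seen. The genes most like each gene are the 2 with the highest r among genes with a mean of at least 10 FPKM. Alternatives were other scalings, a pseudocount of 0.1, low-value filters, voom on recovered fragments, all listed transcripts, a transcript list term, a replicate block, removal of mitochondrial genes and of each library, and, added after the data were seen, coding transcripts only and quantile normalization. Python 3.11.15 was used for the sums and the plots.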

Additional observations from a re-analysis of the deposited data

How the results depend on the processing

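Over 18 alternatives the fold changes of Mt1 (0.09 to 0.91), Mt3 (0.46 to 0.995), Gpx4 (0.47 to 0.94) and Hmox1 (0.60 to 1.29) kept their direction. The smallest adjusted p of any of the 8 genes was 0.193 (Mt3) over the 17 alternatives that give one, since the term for the transcript list was not used as a test. Of 144 values 15 changed sign, and the cause was not tested. A term for the transcript list, which leaves NMDA + PBS replicate 1 alone to compare the SCF libraries with, gave -0.0300 for Sod1 and -0.25 for Nqo1. Cat was -0.0716 with upper quartile, -0.0253 with median-of-ratios and -0.0743 with quantile scaling, -0.0409 with the list term and -0.0888 without mitochondrial genes, and with 1 library left out it ranged from -0.0252 (NMDA + SCF replicate 3) to 0.108, with -0.0170 without NMDA + PBS replicate 3. Gclm was -0.0840, -0.0388 and -0.0551 under the same 3 scalings and -0.101 without mitochondrial genes, and with 1 library left out it ranged from -0.131 (NMDA + PBS replicate 1) to 0.123, with -0.0218 without NMDA + SCF replicate 2. Genes called over all numbered 0, and 2324 at an unadjusted p of 0.05. With single libraries left out the calls ranged from 0 to 55, where 55 came without NMDA + PBS replicate 1, the fit that compares libraries of different transcript lists only. Those of the wider list ranged from 0 to 2 (Prdx3 and Mafg, without the same library), and none of the 8 genes was called in any fit. Genes at an unadjusted p of 0.05 numbered 4404 without NMDA + PBS replicate 1, 1430, 1320 and 1214 without NMDA + SCF replicates 1, 2 and 3, and 1451 with coding transcripts only. Of the 8 genes, 1 passed that unadjusted p with upper quartile scaling. At an adjusted p of 0.05 there were 849 genes without NMDA + PBS replicate 1 and 2 with voom on recovered fragments, none of them among the 8 genes. The replicate numbers did not pair the libraries, since same-numbered libraries correlated at -0.05, -0.05 and -0.08 in their deviations, and with the replicate block 0 genes were called, 1856 reached an unadjusted p of 0.05, and 1 of the 8 genes did. Depth limits Mt1 and Mt3, at 6 to 28 fragments per library.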
